A study of Mus musculus with 9 samples.

Results

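The iron uptake and storage genes were taken as 7 mouse genes by symbol: Tfrc, Fth1, Ftl1, Ireb2, Aco1, Slc11a2 and Ncoa4. They comprise mRNAs that carry iron-responsive elements, the proteins that bind those elements, and the receptor that delivers ferritin for breakdown. All 7 were found among the 27179 gene identifiers of the count table, and all 7 were among the 13129 genes with enough counts to be tested. RNA immunoprecipitation sequencing (RIP-seq), which sequences RNA co-precipitated with a chosen protein, had been done on B cells from the spleen of wild-type mice. The cells were taken as the CD43-negative fraction and stimulated over 72 h with CD40L at 5 ug/mL, an anti-IgM antibody at 10 ug/mL and IL-4 at 20 ng/mL; where the labels give CD40L, the methods give an anti-CD40 antibody. All 3 groups shared this genotype, purification and stimulation, and no other cell state was sampled. The p-UPF1 group (3 libraries) held RNA precipitated with an antibody against phosphorylated UPF1, the IgG group (3 libraries) held RNA pulled down by normal rabbit IgG, and the Input group (3 libraries) held RNA of the lysate.

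UPF1 is the RNA helicase at the centre of nonsense-mediated mRNA decay, and its phosphorylated form is the one that recruits decay factors. Cells set iron uptake and storage largely after transcription. When iron is scarce, the iron regulatory proteins IRP1 and IRP2 bind hairpins called iron-responsive elements (IREs), block translation of mRNAs that carry the hairpin in the 5′ UTR (ferritin), and protect mRNAs that carry it in the 3′ UTR (the transferrin receptor) from cleavage. Dividing lymphocytes depend on transferrin receptor for the iron that DNA synthesis needs. The question put to the data was how strongly each of these mRNAs was recovered with p-UPF1, set against the unspecific recovery with IgG and against its level in the lysate.

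The hairpins themselves are printed because the genes below differ in where they carry them. RefSeq mRNA models on GRCm38 were searched on the sense strand of the spliced sequence. A match needed an unpaired C, then 5 bases that pair across the loop, the loop CAGTGN with a last base other than G, and at least 3 pairs among the 5 bases flanking on each side, with G-U pairs allowed. Capitals mark the 6 bases of the loop, and each line reads 5′ to 3′.
Fth1, 5′ UTR, chr19:9982733-9982759, plus strand: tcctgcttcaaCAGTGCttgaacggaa
Ftl1, 5′ UTR, chr7:45459780-45459806, minus strand: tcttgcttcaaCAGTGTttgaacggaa
Tfrc, 3′ UTR, chr16:32631220-32631246, plus strand: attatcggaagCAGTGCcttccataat
Tfrc, 3′ UTR, chr16:32631599-32631625, plus strand: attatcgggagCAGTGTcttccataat
Tfrc, 3′ UTR, chr16:32631664-32631690, plus strand: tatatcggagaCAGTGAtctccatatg
Tfrc, 3′ UTR, chr16:32631711-32631737, plus strand: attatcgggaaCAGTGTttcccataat
Slc11a2, 3′ UTR, chr15:100395153-100395180, minus strand: gccatcagagcCAGTGTgtttctatggt
The Slc11a2 hairpin is a variant form with 1 unpaired base on the 3′ side of the upper stem, and it was present in 2 of the 3 mRNA models of the gene.

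Each hairpin lay within a single exon. The ferritin hairpins started at base 88 of the Fth1 mRNA and at base 81 of the Ftl1 mRNA, and were identical at 25 of 27 bases. The 4 Tfrc hairpins started at bases 884, 1263, 1328 and 1375 of the 3′ UTR. They were identical to each other at 17 to 25 of 27 bases, and to the ferritin hairpins at 9 to 13. The Slc11a2 hairpin started 33 bases into the 3′ UTR. Such matches were rare. Of 20707 genes searched, 6 (0.029%) carried the plain form in the 5′ UTR and 19 (0.0918%) in the 3′ UTR, and Tfrc was the only gene with 2 or more in the 3′ UTR. The variant form was found in the 3′ UTR of 32 genes (0.1545%). A match describes the letters of the mRNA and does not show that a protein binds there. The search also misses known elements. Of 5 genes listed below with a known IRE in the 3′ UTR, only Tfrc and Slc11a2 had a match there.

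The libraries held 19873687 to 24945286 counts in the Input group, 17372510 to 18550508 in the IgG group and 23251890 to 24802119 in the p-UPF1 group. The members had 365 to 23221 counts per library. Replicate pairs differed by a chi-square, divided by its degrees of freedom, of 1.38 to 1.73 among Input, 2.83 to 4.04 among p-UPF1 and 4.64 to 9.94 among IgG libraries. Both IgG pairs with replicate A were the highest, so the members' log2 fold changes over IgG are also given without that library. The 6 B cell markers summed to 8857 to 8919 CPM (read counts scaled to library size) in Input, 5368 to 5530 with IgG and 2847 to 2933 with p-UPF1. The markers of T, NK, myeloid and erythroid cells each summed to at most 0.842 CPM in every library, with Ncr1, Hbb-bs and Hba-a1 at 0. The red pulp macrophage list summed to 20.5 to 45.4 CPM, carried by Hmox1 and Vcam1. The B cell and red pulp macrophage sums were lower with p-UPF1 than in Input in every library, and whether this bears on the iron genes was not tested. Values below are CPM after TMM scaling, which gives a share of each library and not an amount of RNA, and less RNA per cell and fewer cells with that RNA cannot be told apart.

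The members split in p-UPF1 precipitates. The uptake genes Tfrc and Slc11a2 and the IRP1 gene Aco1 were recovered modestly above IgG, and the ferritin genes Fth1 and Ftl1, the IRP2 gene Ireb2 and Ncoa4 were recovered below it. By edgeR's quasi-likelihood test at an adjusted P under 0.05, 3 of 7 members were higher with p-UPF1 than with IgG, where 40.4% of all tested genes were, and 4 were lower, where 42.2% of all tested genes were. Most tested genes differed between the precipitates, so that all 7 members were called is no result about the members. Their sizes ranged widely. The lowest was Fth1 with a log2 fold change of -2.80, and the highest was Slc11a2 with 0.49. The median over the 7 members was -0.67, against -0.03 over all tested genes. The same 3 members were higher than Input, where 40.8% of tested genes were, and the same 4 were lower, where 42.6% were. The median over the 7 members was -0.39 over Input. Both contrasts use the same p-UPF1 libraries. Precipitates of p-UPF1 and IgG did not overlap for any member, with 3 members above (40.6% of all tested genes) and 4 below (41.5%). Against Input, 3 again lay above (43.2% of all tested genes) and 4 below (45%) every library.

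**Figure D1:**
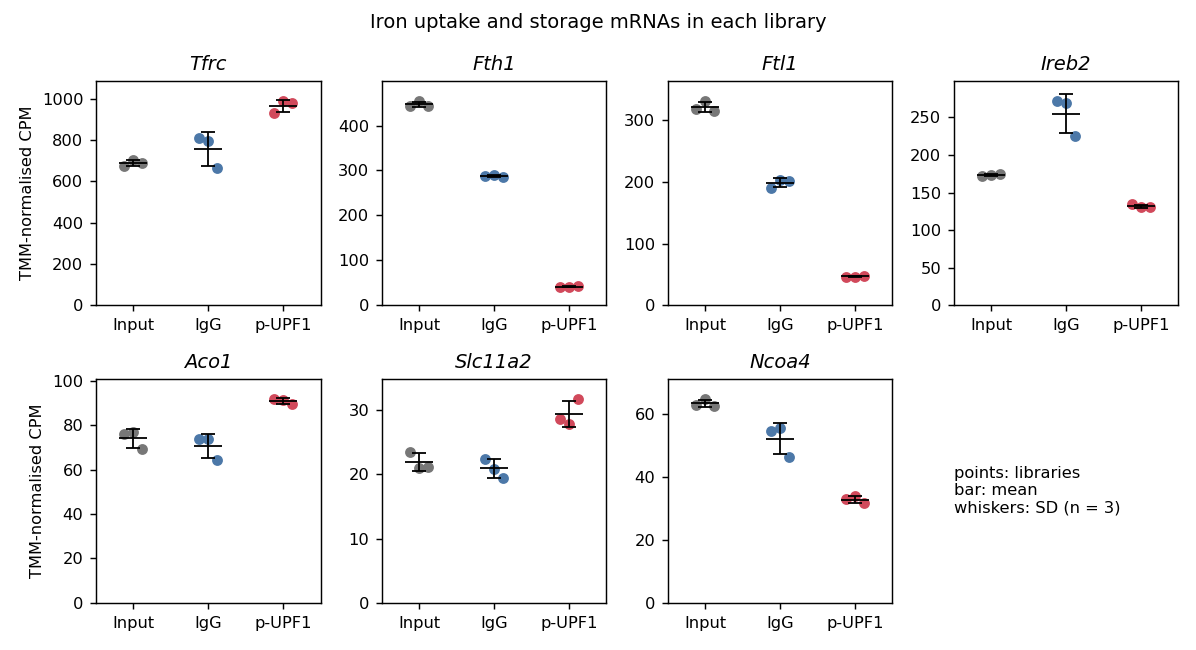
TMM-normalised CPM (y axis, from 0) of each of the 7 genes in the 3 libraries of each group (x axis), with the mean as a bar and the SD as whiskers. Fth1 and Ftl1 fell from about 447 and 322 CPM in Input to 41.3 and 46.7 CPM with p-UPF1, whereas Tfrc rose from 689 to 966 CPM.

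Tfrc (NCBI Gene 22042, chr16:32608896-32632794, plus strand) encodes transferrin receptor 1, which takes up transferrin-bound iron. It had 691, 703 and 673 CPM in Input replicates A, B and C, 663, 799 and 812 CPM with IgG, and 978, 988 and 932 CPM with p-UPF1. Every p-UPF1 library was above every IgG and Input library, and IgG replicate A was the lowest of all 9. By edgeR, its log2 fold change over IgG was 0.35 (SE 0.06) with adjusted P = 4.35e-05, and 0.49 (SE 0.06) with adjusted P = 9.86e-07 over Input, each adjusted by Benjamini-Hochberg. Without IgG replicate A, the value over IgG was 0.26. The rise was ordinary in size among all genes, since 61.4% of tested genes had a lower log2 fold change over IgG.

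Slc11a2 (18174, chr15:100387898-100424209, minus strand) encodes DMT1, the transporter that moves iron out of endosomes after transferrin uptake. It had 21.2, 21.0 and 23.5 CPM in Input, 19.4, 20.9 and 22.4 CPM with IgG, and 31.7, 27.8 and 28.6 CPM with p-UPF1. All p-UPF1 libraries lay above the others, and Input and IgG overlapped. By edgeR, its log2 fold change over IgG was 0.49 (SE 0.08) with adjusted P = 2.66e-05, and 0.42 (SE 0.08) with adjusted P = 9.86e-05 over Input. Without IgG replicate A it was 0.44 over IgG. The gene overlaps Gm5475 on the opposite strand, which had 9 counts over all 9 libraries.

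Fth1 (14319, chr19:9980600-9985111, plus strand) encodes the ferritin heavy chain, which oxidises iron for storage. It had 444, 454 and 444 CPM in Input, 286, 290 and 287 CPM with IgG, and 42.0, 41.0 and 40.7 CPM with p-UPF1. The 3 groups were fully apart and replicates lay within a few percent of each other. Fth1 was 6.97-fold lower with p-UPF1 than with IgG (log2 fold change -2.80, SE 0.04; edgeR adjusted P = 3.72e-18) and 10.8-fold lower than in the lysate (-3.44, SE 0.04; edgeR adjusted P = 3.52e-19). Of all tested genes, 1.90% had a lower log2 fold change over IgG and 1.52% over Input.

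Ftl1 (14325, chr7:45457944-45459886, minus strand) encodes the ferritin light chain, which helps form the iron core of the ferritin shell. It had 315, 331 and 319 CPM in Input, 202, 204 and 190 CPM with IgG, and 48.0, 46.5 and 45.7 CPM with p-UPF1. As for Fth1, no libraries of different groups overlapped. Ftl1 was 4.25-fold lower with p-UPF1 than with IgG (log2 fold change -2.09, SE 0.05; edgeR adjusted P = 2.19e-16) and 6.88-fold lower than in the lysate (-2.78, SE 0.05; edgeR adjusted P = 7.59e-18). Without IgG replicate A, the log2 fold changes over IgG were -2.81 for Fth1 and -2.07 for Ftl1. Of 8 other ferritin-like entries listed, Ftl1-ps2 and members of the Fthl17 family, only Ftl1-ps2 had any count, at most 5 in a library. No entry was named as an Fth1 pseudogene. How alike these sequences are was not measured, and whether reads were shared with copies elsewhere in the genome was not tested.

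The 2 genes for iron regulatory proteins went opposite ways. Aco1 (11428, chr4:40143265-40199009, plus strand) encodes IRP1, which doubles as cytosolic aconitase when it holds an iron-sulfur cluster. It had 69.3, 76.7 and 76.1 CPM in Input, 64.4, 73.8 and 74.0 CPM with IgG, and 89.5, 91.5 and 91.7 CPM with p-UPF1. Input and IgG libraries overlapped and p-UPF1 libraries lay above both. By edgeR, its log2 fold change over IgG was 0.36 (SE 0.06) with adjusted P = 2.44e-05, and 0.30 (SE 0.06) with adjusted P = 0.00016 over Input, and 0.30 over IgG without IgG replicate A.

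Ireb2 (64602, chr9:54862658-54912534, plus strand) encodes IRP2, which is degraded when iron is plentiful. It had 175, 173 and 172 CPM in Input, 226, 269 and 271 CPM with IgG, and 131, 130 and 134 CPM with p-UPF1. Its IgG libraries were the highest and its p-UPF1 libraries the lowest, with no overlap. By edgeR, its log2 fold change over IgG was -0.95 (SE 0.06) with adjusted P = 1.26e-10, but only -0.39 (SE 0.06) with adjusted P = 9.22e-06 over Input. Without IgG replicate A it was -1.03 over IgG. Ireb2 was further below IgG than below Input, whereas the other lowered members (Fth1, Ftl1 and Ncoa4) were further below Input.

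Ncoa4 (27057, chr14:32159879-32179855, plus strand) encodes the receptor that hands ferritin to lysosomes. It had 62.7, 64.9 and 62.9 CPM in Input, 46.5, 55.8 and 54.7 CPM with IgG, and 31.7, 34.0 and 33.0 CPM with p-UPF1. The groups again stood apart in that order. By edgeR, its log2 fold change over IgG was -0.67 (SE 0.07) with adjusted P = 7.90e-08, and -0.95 (SE 0.07) with adjusted P = 5.97e-10 over Input, and -0.75 over IgG without IgG replicate A.

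In the study's methods an RNA counts as p-UPF1-bound when its log2 fold change reaches 1 against IgG and 2 against Input, both with an adjusted P under 0.05. No member met this criterion, where 820 of the 13129 tested genes (6.25%) did. The 3 members recovered above both backgrounds stayed far from it, with at most 0.49 over either, so their fold changes kept them out whatever the P value. The count was also 0 by DESeq2 and by limma-voom.

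IgG precipitates were themselves not a copy of the lysate for these genes. By edgeR's quasi-likelihood test, 1 member was higher in IgG than in Input (18.2% of tested genes were) and 3 were lower (34.7% were). The same 4 members were those whose IgG libraries lay wholly above (1 member, where 19.6% of tested genes did) or wholly below (3 members, where 38.5% did) Input. The higher one was Ireb2, with a log2 fold change of 0.56 (SE 0.06, adjusted P = 7.00e-07), above 93.0% of tested genes. The lower ones were Ftl1 with -0.70 (SE 0.04, adjusted P = 2.15e-09), Fth1 with -0.64 (SE 0.04, adjusted P = 1.19e-09) and Ncoa4 with -0.28 (SE 0.06, adjusted P = 0.00156). Tfrc with 0.14 (adjusted P = 0.0636), Aco1 with -0.06 (adjusted P = 0.38) and Slc11a2 with -0.07 (adjusted P = 0.526) did not pass in this edgeR test, and the last 2 turned to between 0.00323 and 0.0505 under other scalings or filters. The Tfrc call depended on the scaling and on 1 library. It passed under other scalings, with 0.17 to 0.25. Without IgG replicate A its log2 fold change was 0.22 (adjusted P = 3.20e-05, edgeR).

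Ratios between 2 members within a library need no scaling between libraries. The Tfrc to Fth1 count ratio was 1.56, 1.55 and 1.52 in Input replicates A, B and C, 2.32, 2.75 and 2.83 with IgG, and 23.3, 24.1 and 22.9 with p-UPF1. The p-UPF1 ratios were thus an order of magnitude above the others, 8.92-fold over IgG and 15.2-fold over Input. The 2 ferritin chains also came apart. The Fth1 to Ftl1 ratio was 1.39 ± 0.0185 in Input and 1.45 ± 0.0503 with IgG but 0.883 ± 0.0069 with p-UPF1 (SD, n = 3), so the heavy chain mRNA was the more depleted. The Ireb2 to Aco1 ratio was 2.34 ± 0.15 in Input, 3.60 ± 0.0864 with IgG and 1.45 ± 0.0228 with p-UPF1 (SD, n = 3). For each of these 3 ratios the p-UPF1 libraries did not overlap those of IgG or Input, and the two-sided exact permutation test gave p = 0.1 against either, the smallest that 3 against 3 libraries allow. Of 5 ratios computed, the other 2 (Tfrc to Ftl1 and Tfrc to Ireb2) gave the same p, and adjustment over the 5 leaves it at 0.1.

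**Figure D2:**
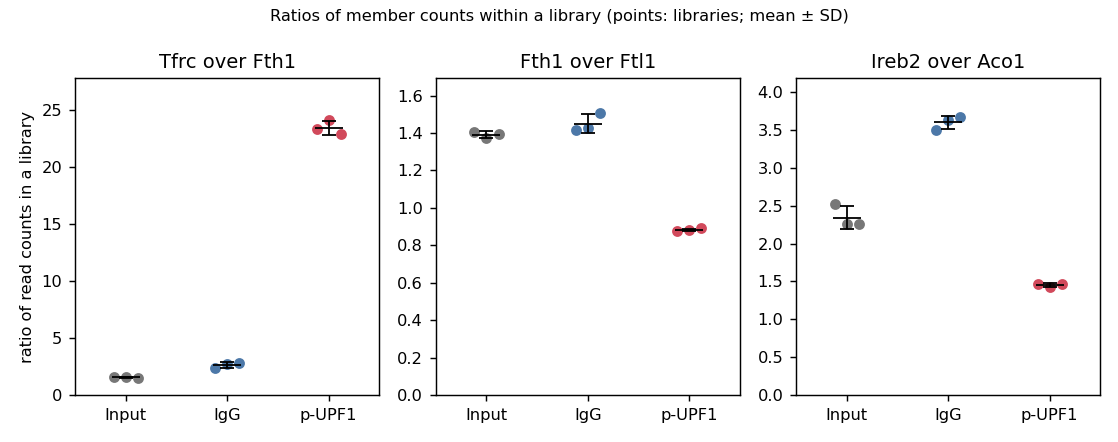
Ratio of the read counts of 2 members within a library (y axes, linear, from 0) for Tfrc over Fth1, Fth1 over Ftl1 and Ireb2 over Aco1, by group (x axis), with points for libraries, a bar for the mean and whiskers for the SD (n = 3). The Tfrc to Fth1 ratio averaged 1.54 in Input, 2.63 with IgG and 23.4 with p-UPF1.

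Levels of different genes can be compared only per length, so CPM were divided by the exon length of each gene in kb. In Input the order was Ftl1 (331 CPM per kb), Fth1 (296), Tfrc (134), Ireb2 (20.4), Aco1 (17.1), Ncoa4 (14.9) and Slc11a2 (3.33). The libraries of neighbours in that order did not overlap. In p-UPF1 libraries the order was Tfrc (188 CPM per kb), Ftl1 (48.2), Fth1 (27.3), Aco1 (21.0), Ireb2 (15.6), Ncoa4 (7.70) and Slc11a2 (4.46), again without overlap between neighbours. Tfrc thus passed from the third place to the first, and by this length Aco1 passed Ireb2. The length used joins all annotated exons of a gene, 8474 bases for Ireb2 and 1511 for Fth1. Their longest mRNA models had only 5808 and 942 bases, whereas Aco1 (4319) and Ftl1 (970) had the same length either way. The order of Aco1 and Ireb2 and that of Fth1 and Ftl1 therefore depend on the length chosen. In IgG libraries the order was that of Input, with Ftl1 at 205 and Tfrc at 147 CPM per kb.

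The members also differ in the length of the 3′ UTR, which the choice of genes did not use. A long 3′ UTR is a textbook feature of some UPF1 targets. In the longest RefSeq model, the 3′ UTR had 163 bases in Ftl1, 169 in Fth1, 1342 in Aco1, 2027 in Ncoa4, 2458 in Tfrc, 2555 in Slc11a2 and 2793 in Ireb2. When 11896 tested genes with such a model were split into quintiles by 3′ UTR length, the median log2 fold change over IgG was -0.90, -0.21, 0.32, 0.50 and 0.33 from the shortest to the longest quintile. Spearman's rho between length and this log2 fold change was 0.354 across these genes, which are not independent replicates, and length goes with other features of an mRNA.

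Against genes of their own quintile, the members fell into 3 kinds. Tfrc, Aco1 and Slc11a2 lay near the middle, with 50.7%, 51.4% and 55.0% of the quintile below them over IgG. Fth1 and Ftl1 lay low even among short 3′ UTRs, with 4.83% and 15.6% of that quintile below them, a log2 difference from its median of -1.90 for Fth1 and -1.19 for Ftl1. Ireb2 and Ncoa4 have long 3′ UTRs but lay low in their quintiles, with 11.0% and 16.6% below them. Over Input, 52.4% of the quintile lay below Tfrc, 50.4% below Aco1 and below Slc11a2, 4.29% below Fth1, 11.3% below Ftl1 and 12.8% below Ncoa4. Ireb2 stood higher over Input, with 24.2% of its quintile below it, and in IgG over Input 92.2% lay below it.

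**Figure D3:**
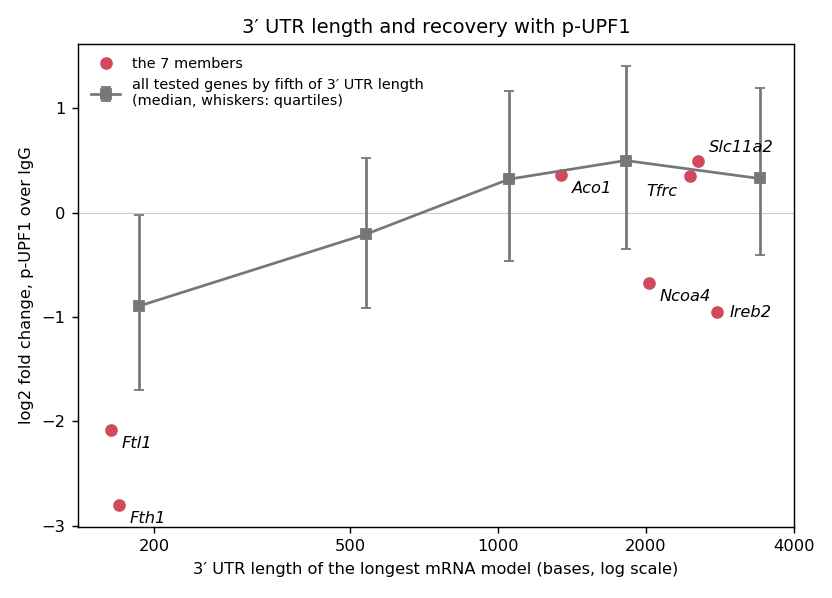
Log2 fold change of p-UPF1 over IgG (y axis) against 3′ UTR length of the longest mRNA model (x axis, log scale) for the 7 genes (red points) and for all 11896 tested genes by quintile of length (grey squares at the median, whiskers for the quartiles). Tfrc, Aco1 and Slc11a2 sit on the grey line, and Fth1, Ftl1, Ncoa4 and Ireb2 sit below it.

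Besides Tfrc, 16 genes with the plain hairpin in the 3′ UTR were tested. Of these, 9 were higher and 5 lower with p-UPF1 than with IgG, where 40.4% of all tested genes were higher and 42.2% lower, with a median log2 fold change of 0.42 and a range of -1.80 to 1.89. Against Input, 8 were higher and 7 lower, where 40.8% and 42.6% of all tested genes were. Of the 6 genes with the plain hairpin in the 5′ UTR, 3 could be tested, namely Fth1, Ftl1 and Serpina3g. Serpina3g, a protease inhibitor gene, had a log2 fold change of 0.76 over IgG and was called higher, opposite to ferritin. These genes are matches to a pattern that misses known elements, and not a survey of mRNAs with an IRE. Of 27 other tested genes with the variant hairpin in the 3′ UTR, 14 were higher and 6 lower over IgG, and 17 were higher and 6 lower over Input. These counts are to be read against the same shares of all tested genes.

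In the wider set of iron and heme genes, more were lower than higher with p-UPF1. It held 69 genes by role, of which 65 were tested and Alas2, Glrx5, Slc40a1 and Trf had too few counts. Without the 7 members, 15 of 58 tested genes were higher than IgG (25.9%, against 40.4% of all tested genes) and 34 were lower (58.6%, against 42.2%), with a median log2 fold change of -0.38 against -0.03 over all tested genes. Against Input, 15 were also higher and 34 lower, where 40.8% and 42.6% of all tested genes were.

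Iron entry comes first. Of 9 tested genes for iron uptake and reduction, Tfrc and Slc11a2 among them, 6 were higher over IgG (66.7%, against 40.4% of all tested genes) and 2 lower (22.2%, against 42.2%). Of these 6, Hfe, Steap3 and Cybrd1, named here after their values were seen, had mean levels of only 0.81, 1.35 and 0.34 CPM with IgG, and none of the 3 was called over Input. Against Input, 3 genes of the list were higher (33.3%, against 40.8%), 2 lower (22.2%, against 42.6%) and 4 not called. The highest over IgG at a mean of at least 10 CPM was Slc39a14, which encodes the iron and zinc importer ZIP14. It had 37.3 ± 2.03 CPM with IgG and 117 ± 0.22 CPM with p-UPF1 (SD, n = 3), a log2 fold change of 1.65 over IgG (SE 0.05, adjusted P = 1.27e-14, edgeR) and 1.25 over Input. The lowest at that level was Mcoln1, a lysosomal cation channel gene, with -0.69 over IgG (adjusted P = 3.21e-05, edgeR).

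Storage, control and heme genes follow. All 4 genes for ferritin turnover and iron chaperones, Ncoa4 among them, were lower over IgG, and 3 were lower over Input. Here and for the next lists, the shares of all tested genes were 40.4% higher and 42.2% lower over IgG, and 40.8% higher and 42.6% lower over Input. Among them, Pcbp2, which encodes a poly(C)-binding protein that delivers iron to ferritin, had 483 ± 5.81 CPM with IgG and 83.4 ± 2.97 CPM with p-UPF1 (SD, n = 3). On the log2 scale Pcbp2 stood at -2.54 against IgG and at -3.17 against Input, where Fth1 had -2.80 and -3.44. Herc2, a ubiquitin ligase gene, was the least lowered with -0.28 (adjusted P = 0.00453, edgeR), and its p-UPF1 and IgG libraries overlapped. Of 8 genes of the iron regulatory proteins and their control, Aco1 alone was higher and 7 were lower (87.5%) over IgG, and 2 were higher and 6 lower over Input. The lowest over IgG was Skp1, a subunit of SCF ubiquitin ligases, with -1.44. Of 14 heme synthesis and breakdown genes, 2 were higher (14.3%) and 10 lower (71.4%) over IgG, and as many over Input. At a mean of at least 10 CPM they ranged over IgG from Urod, a heme synthesis enzyme gene, with -1.82 to the heme transporter gene Slc48a1 with 1.34.

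The next list joins genes for mitochondrial iron handling and for mitochondrial iron-sulfur assembly. Of its 13 tested genes, 3 were higher (23.1%, against 40.4% of all tested genes) and 9 lower (69.2%, against 42.2%) over IgG. Against Input, 4 were higher (30.8%, against 40.8%) and 9 lower (69.2%, against 42.6%). Of 7 genes for cytosolic iron-sulfur assembly, 4 were higher (57.1%) and 1 was lower (14.3%) over IgG. Over Input, 4 of these 7 were higher and 3 lower (42.9%, against 42.6%). Iba57, which acts late in mitochondrial iron-sulfur assembly, was the only gene of the wider set that met the bound criterion. It had 14.6, 13.2 and 14.5 CPM in Input replicates A, B and C, 10.9, 10.4 and 14.0 CPM with IgG, and 77.5, 83.3 and 81.6 CPM with p-UPF1. The p-UPF1 libraries were several times above all others. By edgeR, its log2 fold change over IgG was 2.78 (SE 0.09) with adjusted P = 1.59e-14, and 2.52 (SE 0.08) with adjusted P = 2.83e-14 over Input. The mitochondrial co-chaperone gene Hscb was the lowest at a mean of at least 10 CPM with -2.36 over IgG. Among cytosolic factors of that level, Nubp1 was the highest with 0.84, and Ciao2b the lowest with -1.06.

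The set also groups genes with a known IRE in the 3′ UTR. Of 5 tested, 3 were higher and 1 was lower over IgG, where 40.4% and 42.2% of all tested genes were, and 4 were higher and 1 lower over Input, where 40.8% and 42.6% were. The lower one was Pfn2, at a mean of 7.33 CPM over the 9 libraries, and its change was the largest of the 5. It had -1.41 over IgG (adjusted P = 2.82e-06, edgeR) and -1.69 over Input. Cdc14a, a phosphatase gene, had 0.18 over IgG (adjusted P = 0.0603, edgeR). The value of Cdc14a moved with single libraries, to 0.09 without IgG replicate A (adjusted P = 0.246, edgeR). It passed the threshold without p-UPF1 replicate A (0.27) or IgG replicate B (0.28). Tfrc and Slc11a2 are in these counts, so the counts are not independent of the values above. Fth1 and Ftl1, which carry the element in the 5′ UTR, were lower over both, as given above. Of 3 genes for stem-loop decay factors that act on Tfrc mRNA, 1 was higher, 1 lower and 1 not called over IgG, and likewise over Input. Rc3h2 was higher with 0.60 over IgG and 0.93 over Input. Rc3h1 was lower with -0.57 over IgG but not called over Input (-0.04, adjusted P = 0.717, edgeR), and its IgG libraries were above Input by 0.53 on the log2 scale (adjusted P = 0.000172, edgeR). Zc3h12a, which encodes the RNase Regnase-1, was not called over IgG (-0.10, adjusted P = 0.192, edgeR) and was lower over Input (-0.20, adjusted P = 0.0145, edgeR).

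**Figure D4:**
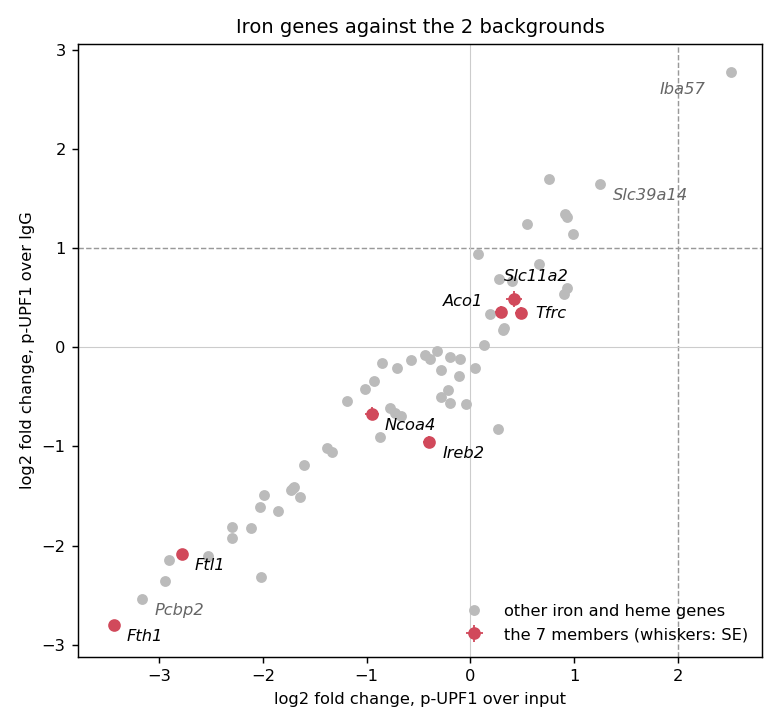
Log2 fold change over IgG (y axis) against log2 fold change over Input (x axis), which share the p-UPF1 libraries, for the 7 members (red, whiskers for the SE) and the 58 other tested iron and heme genes (grey). Dashed lines mark the 1 and 2 of the bound criterion. Iba57 alone lies beyond both.

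The genes whose pattern over the 9 libraries was most like a member's were sought among 8992 genes of at least 10 CPM, by Euclidean distance of log2 CPM centred on each gene's mean. For Fth1 they were Naca (distance 0.138), Magoh and Btf3. Naca and Btf3 encode the subunits of the nascent polypeptide-associated complex, and Magoh encodes a core protein of the exon junction complex. For Ftl1 they were Taf10, Sh3glb1 and Emp3. For Tfrc they were Atxn7l3b (distance 0.103), Spty2d1 and Ate1, for Slc11a2 Armt1, Homer2 and E2f8, and for Aco1 Mapre1, Kmo and Dkc1. Ireb2 was nearest to Wee1, Fem1b and Ckap5, and Ncoa4 to Zc3hc1, Eif2b5 and Rpia. Nearness is a description over 9 libraries and says nothing of shared control.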

How the data were processed

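RIP-seq libraries of 3 groups (p-UPF1, IgG and Input, 3 each) were analysed. The deposited values are the authors' raw read counts per gene, by NCBI Gene number, without scaling. The submitters' processing notes name cutadapt, HISAT2, featureCounts and mm10, without versions. Whether strand was used in counting the RIP-seq reads is not given in the sources used here, although the kit was directional. Reads had no molecular identifiers, so reads copied from the same molecule were counted separately.

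Identifiers were matched to RefSeq symbols on GRCm38 (25275 of 27179), and those without a symbol held 0.3795% of counts. Genes were kept by edgeR's filterByExpr (minimum count 10, minimum total 15), which left 13129 genes and 99.9% of counts. Counts were scaled by TMM, with p-UPF1 replicate A as the default reference, and 1 model of the 3 groups without covariates (6 residual degrees of freedom) was fitted with glmQLFit and tested with glmQLFTest (edgeR's quasi-likelihood test), with P values adjusted by Benjamini-Hochberg over all tested genes. The prior count behind log2 fold changes was 0.125. The fit was tested on simulated counts with 200 changed genes. Versions were R 4.3.3, edgeR 4.0.16, limma 3.58.1, DESeq2 1.42.0, Python 3.11.15, SciPy 1.17.1 and pandas 2.3.3.

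Columns carry letters where the labels number replicates, so columns were tied to groups only. The study's methods call the data points in its graphs independent biological replicates, without a statement for these libraries in particular, and P values measure the spread between them. Members and gene lists were chosen with earlier results of these data known. Named genes are the 7 members, of each list the genes with the highest and lowest log2 fold change over IgG at a mean of at least 10 CPM, any listed gene meeting the bound criterion, ferritin copies, and the 3 genes nearest to each member, with a pseudocount of 0.5 CPM. A gene that this rule names, with its list, is not reported here. Serpina3g, Hfe, Steap3, Cybrd1, Pfn2 and Zc3h12a were named outside this rule, after their values were seen. UTR lengths are those of the longest RefSeq mRNA model. Alternatives were other scalings, filters, tools (DESeq2, limma-voom), thresholds, samples fitted, leaving out each library and, chosen after seeing the data, a block by column letter.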

Additional observations from a re-analysis of the deposited data

How the results depend on the processing

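Under 20 alternatives, all 14 member log2 fold changes of p-UPF1 over IgG or Input kept their direction and stayed under the threshold of 0.05. Over IgG they ranged from 0.19 to 0.40 for Tfrc, 0.33 to 0.54 for Slc11a2, 0.20 to 0.41 for Aco1, -2.96 to -2.76 for Fth1, -2.25 to -2.04 for Ftl1, -1.11 to -0.90 for Ireb2 and -0.83 to -0.61 for Ncoa4. The median of all genes over IgG moved from -0.03 to -0.19 with library size alone and to -0.17 with upper-quartile factors, so the low end for Tfrc, Slc11a2 and Aco1 is to be read against that shift.

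IgG over Input changed more. With library size alone, upper-quartile factors, TMM referenced to Input or to IgG, no filter, or only the 2 groups fitted, Aco1 turned to 0.0505, 0.00487, 0.0421, 0.0423, 0.0234 and 0.0420, and Slc11a2 to 0.0488, 0.00323, 0.0406, 0.0408, 0.0220 and 0.0402, in that order and never called. Under these 6, and with DESeq2, its size factors in edgeR or a minimum of 1 CPM, 2 members and not 1 were higher, the added gene being Tfrc (0.15 to 0.25). Leaving out 1 library gave 1 to 2, with 2 without IgG replicate A. Of the 65 tested genes of the wider set, 8 were higher in IgG than in Input (12.3%, against 18.2% of all tested genes), but 14 with library size alone, upper-quartile factors, either other TMM reference or only the 2 groups, and 13 without a filter. Over all tested genes the count rose too, from 2390 to between 3032 and 3522 under these 6. No gene of that set that the naming rule picked turned over IgG. Cdc14a passed over IgG in 6 alternatives, and its value ran from 0.015 with library size alone to 0.28 without IgG replicate B.

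With at least 1 over Input in the bound criterion, 2478 genes and 2 of the wider set met it, the added one being Slc39a14, and with edgeR's glmTreat 541 genes did. The cause of these changes was not tested, apart from thresholds, which act by construction. The planned block by the replicate number of the labels was not run, since columns are lettered. A replicate block by column letter (4 residual degrees of freedom), chosen after seeing the data, was run in its place. Over the 9 pairs of libraries with the same letter in different groups, r of their deviations from the group means was -0.0051 to 0.0542, none over 0.1. Over the 18 pairs with different letters it was -0.056 to 0.0222. Of 18 best matches, 13 shared the letter, which leans towards weak pairing by letter. No label says that letters mark pairs, and the main fit was left unpaired. With this replicate block 2 members were higher in IgG than in Input, the added one being Tfrc (0.13, adjusted P = 0.0413, edgeR). Cdc14a passed over IgG. No other call of a member changed, nor did any other call over IgG of a gene that the naming rule picked. Each member had at least 365 counts in every library, and whether depth limits the 3 members not called in IgG over Input was not tested.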
